A study of Mus musculus with 44 samples.

Results

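The brain response to a ketogenic diet (KD) was compared between a single week of feeding and about a year of cyclic feeding. The quantity described is a difference of differences for each gene: the log2 fold change of KD over control diet (CD) in brains of 26 months, minus the same fold change in brains of 12 months. A positive value means that the diet effect was higher after the year, and a negative value that it was lower. All 28 brain libraries of the series entered it, of 44 libraries in all, and they were taken by their labels of tissue, age and diet. The mice were C57BL/6 males from the colony of the National Institute on Aging, and whole brain RNA was sequenced after removal of ribosomal RNA. At 12 months there were 5 mice on CD and 7 that had eaten KD for a week. At 26 months 8 mice had stayed on CD, and 8 had been fed KD and CD in turn, a week of each (the cyclic KD), with tissue taken in a week of CD. The carbohydrate-rich CD made up the control arm at both ages. Age, the length of the diet, and whether KD was being eaten at collection therefore cannot be told apart in the difference. No library is labelled with a batch, a day or a cage.

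When carbohydrate is scarce, the liver turns fatty acids into the ketone bodies beta-hydroxybutyrate and acetoacetate. Neurons cannot easily burn fatty acids, so the brain takes ketone bodies from blood through monocarboxylate transporters (MCTs), of which MCT1, the product of Slc16a1, is the main form in the endothelium of the blood-brain barrier, also found in glia. Inside cells the ketone bodies are converted by Bdh1, Oxct1 and Acat1 to acetyl-CoA. Glucose enters across the same endothelium through GLUT1, the product of Slc2a1.

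The libraries held 7447742 to 12744415 counts, so that the group medians lay between 10581783 and 11045778. Defining markers of neurons, astrocytes, oligodendrocytes, microglia and endothelium were present in every library, with Snap25 at 1295 to 1872 counts per 1000000 (CPM) and the endothelial Cldn5 at 6.25 to 16.9, while the liver gene Alb had a median of 0.779. Libraries differed in the brain regions they held: the cerebellar Gabra6 ranged from 0.0903 to 312 CPM, and the hindbrain gene Hoxb5 from 0 to 15.7. Reads of Gm10800, a predicted gene, took a median of 0.203% and 0.258% of counts in the CD and KD brains of 26 months, and at most 0.0017% at 12 months. Targets of the glucocorticoid receptor and of FOXO factors were summed up as a score, the mean z-value over the list. This score was highest in 4 of the 8 CD brains of 26 months, those numbered 3, 5, 6 and 7. It was 1.60, 0.44, 1.25 and 1.16 there, and the next value was 0.35, in one-year KD brain 14. Single targets did not all follow this order. Of these 4, brain 5 also had the fewest counts and the most Gm10800 (1.22%) of all brains. Where leaving out these 4 turned the sign of a printed difference or, for a gene past an unadjusted p of 0.05, moved it by over 1.5 times, both values are given, except for Acat1, whose difference was 0.00.

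No gene passed an adjusted p under 0.05 for the difference between the diet effects, in edgeR's quasi-likelihood test over 22079 genes (0% called in either direction). The smallest adjusted p was 0.41, and it belonged to Slc16a1. DESeq2 and limma also called 0 genes. At an unadjusted p under 0.05, 345 genes had a higher diet effect after the year (1.56% of those tested) and 653 a lower one (2.96%), 998 in all (4.52%). These shares are the background against which the lists of genes below are read. With no difference in any gene, a share of about 0.05 is expected past this threshold, and 4.52% is no larger. The one-week KD on its own had 1 call of 22079 genes, an increase of Slc16a1 (0.00453%), and 0 decreases, with 328 genes higher (1.49%) and 257 lower (1.16%) at unadjusted p under 0.05. The one-year KD had 0 calls in either direction, with a smallest adjusted p of 0.989 and with 336 genes higher (1.52%) and 663 lower (3%) at unadjusted p under 0.05.

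Across the 22079 genes the 2 diet effects, which share no libraries, had a Pearson correlation of -0.07 and a Spearman correlation of -0.06. Among the 17397 genes with a mean log2 CPM above 1 both were -0.07. These are correlations across genes, which are not independent replicates, and they carry no p. The median difference over all genes was 0.00334, so the distribution was centred on 0, and the median absolute difference of 0.132 was smaller than the median standard error of 0.216. In 33 genes every one-week KD brain stood above every CD brain of its age (0.149% of genes tested), and in 25 every one stood below (0.113%). After the year this held for 1 gene above (0.00453%) and 0 below (0%). Groups of 5 and 7 separate fully by chance far more often than groups of 8 and 8. These counts therefore do not compare the sizes of the 2 diet effects, and separation of a single gene at 12 months is weak evidence.

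**Figure D1:**
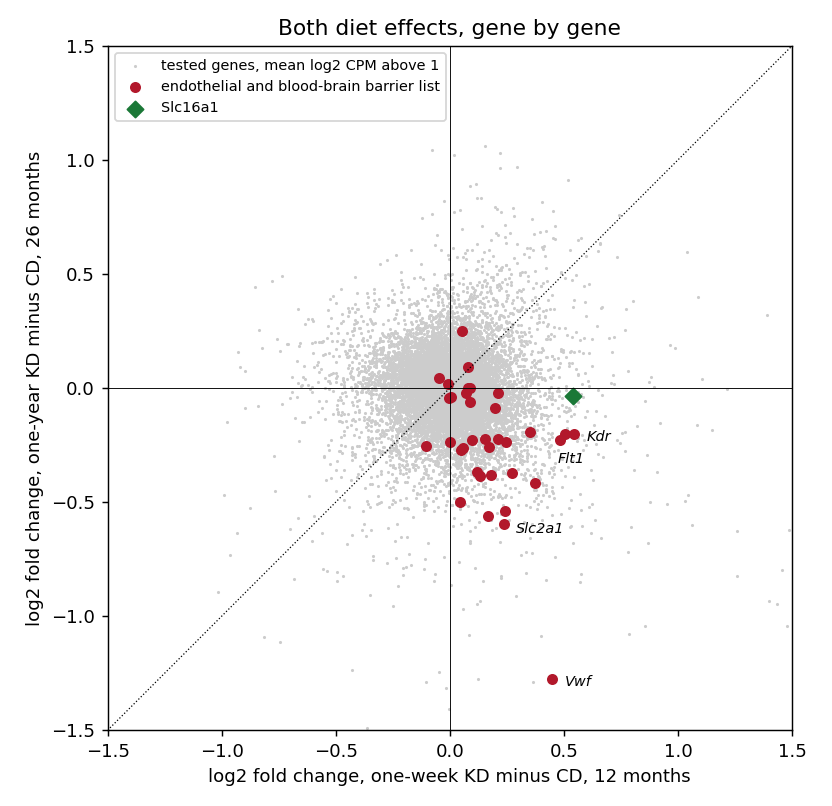
Each grey point is a tested gene with a mean log2 CPM above 1, placed by its log2 fold change after one week of KD (x axis) and after one year (y axis); 17383 genes are drawn and 14 lie beyond 1.5 on an axis. Points below the dotted diagonal had a lower diet effect after the year, as did 31 of the 35 genes of the endothelial and blood-brain barrier list (red), and Slc16a1 (green diamond) lies at the right near 0 on the y axis.

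Slc16a1 (ENSMUSG00000032902, chr3:104638668-104658462, plus strand, in GRCm38 with the annotation GENCODE vM21) led the comparison. In the 12-month CD brains it stood at 42.2, 41.9, 48.3, 43.4 and 39.9 CPM. In the 7 one-week KD brains it ranged from 56.8 to 68.4, with a median of 62.8. At 26 months it ranged from 32.5 to 52.4 on CD (median 46.4) and from 37.9 to 50.7 on the cyclic KD (median 42.7). Every brain in its week of KD thus stood above every other brain of all 3 other groups, and the 2 groups of 26 months overlapped almost fully. The one-week effect was a log2 fold change of 0.54 (SE 0.09, n = 7 against 5), which passed edgeR's test at an adjusted p of 0.0417. The adjusted p of this effect was 4.2e-05 in DESeq2 and 0.00405 in limma, but 0.191 in edgeR with scores of brain regions as covariates. The one-year effect was -0.04 (SE 0.08, n = 8 against 8), and the difference was -0.58 (SE 0.12, 95% interval -0.82 to -0.34). That difference kept an adjusted p of 0.41 in edgeR and of 0.0561 in DESeq2. Leaving out CD brain 3 of 26 months, the lowest of its group at 32.5 CPM, gave -0.63 and an adjusted p of 0.0184. That was the 1 call of the difference among the 28 fits that each left out 1 library. Without the 4 CD brains high in glucocorticoid and FOXO targets the difference was -0.60, with an adjusted p of 0.0488. It was not called with scores of brain regions as covariates (-0.47), without brains over 0.5% Gm10800 (-0.49), or without 2 one-week KD brains of high hindbrain score (-0.54). The one-week call itself was lost in 15 of the 28 fits that each left out 1 library, where the adjusted p ran from 0.00212 to 0.331 and the log2 fold change from 0.51 to 0.58.

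**Figure D2:**
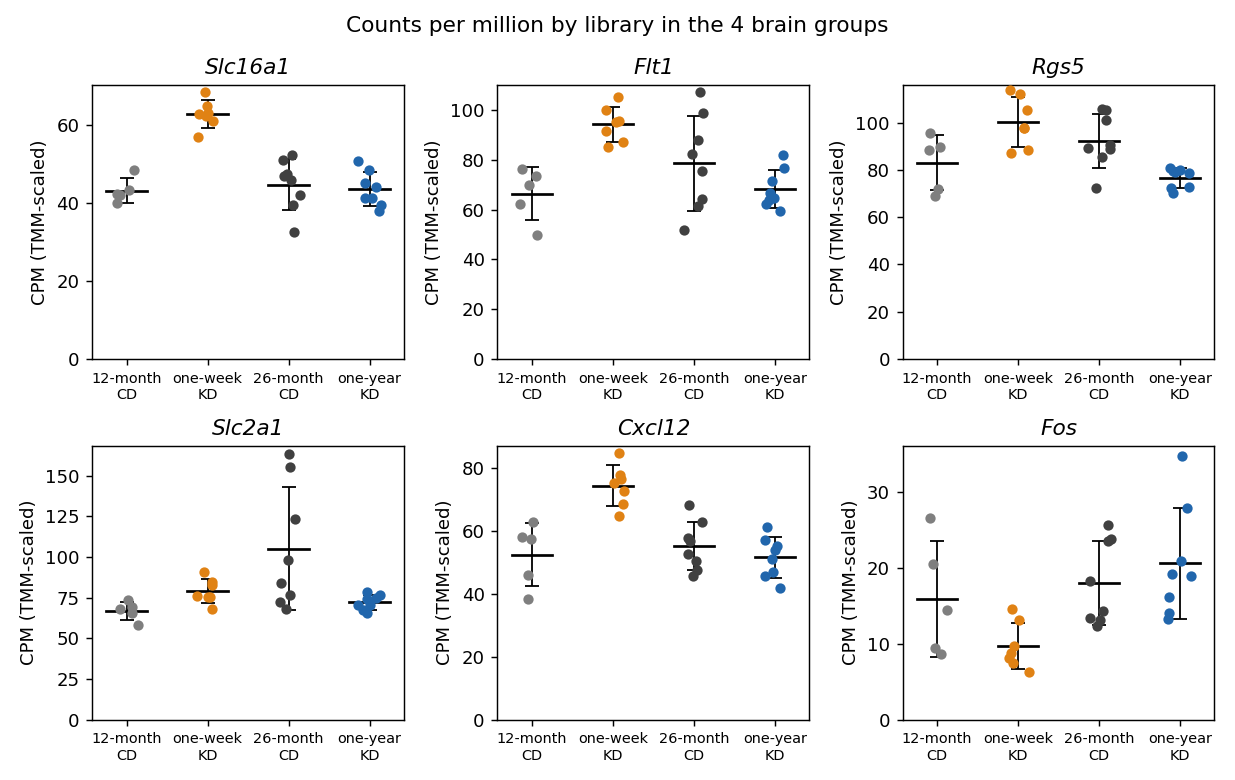
CPM of 6 genes (y axis from 0) in each brain library of the 4 groups, with the group mean and SD in black. The one-week KD brains stand apart from all others for Slc16a1, at 56.8 CPM and above, while for Slc2a1 the high values, up to 163 CPM, belong to the CD brains of 26 months.

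The 250 bases before the RefSeq start (build GRCm38.p6) are shown for the 4 genes named most in what follows: the ketone body transporter Slc16a1 (chr3:104638414-104638663, plus strand), the endothelial receptors Flt1 (chr5:147726012-147726261, minus strand) and Eng (chr2:32646345-32646594, plus strand), and the glucose transporter Slc2a1 (chr4:119108495-119108744, plus strand). Capitals mark ACGTG, a form of the core of the element bound by hypoxia-inducible factors, on either strand. Other forms of that core were not searched and are not marked. In Slc16a1 it lies in the palindrome CACGTG, which reads the same on both strands and so was counted on each.
Slc16a1: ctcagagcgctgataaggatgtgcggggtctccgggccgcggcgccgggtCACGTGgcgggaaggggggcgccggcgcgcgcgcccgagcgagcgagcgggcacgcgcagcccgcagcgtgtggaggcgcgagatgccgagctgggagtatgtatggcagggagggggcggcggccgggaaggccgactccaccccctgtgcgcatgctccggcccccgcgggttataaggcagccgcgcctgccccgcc
Flt1: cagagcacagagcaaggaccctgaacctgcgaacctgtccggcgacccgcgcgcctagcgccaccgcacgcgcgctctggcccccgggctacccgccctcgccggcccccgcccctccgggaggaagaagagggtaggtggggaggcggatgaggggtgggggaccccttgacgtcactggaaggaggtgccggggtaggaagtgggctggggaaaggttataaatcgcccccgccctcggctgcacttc
Eng: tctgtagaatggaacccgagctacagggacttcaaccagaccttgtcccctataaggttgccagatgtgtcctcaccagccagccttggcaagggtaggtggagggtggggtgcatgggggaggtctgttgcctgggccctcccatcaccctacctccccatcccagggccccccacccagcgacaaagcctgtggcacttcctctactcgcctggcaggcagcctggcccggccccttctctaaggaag
Slc2a1: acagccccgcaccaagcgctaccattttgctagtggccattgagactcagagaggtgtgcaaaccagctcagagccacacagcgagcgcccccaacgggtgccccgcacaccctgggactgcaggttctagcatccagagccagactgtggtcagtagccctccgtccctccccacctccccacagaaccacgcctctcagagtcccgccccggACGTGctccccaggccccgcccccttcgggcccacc

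The core ACGTG was found in 16.6% of all 27025 RefSeq windows of this length and in 20.4% of the 13166 that belong to genes tested in brain. In the endothelial and barrier list it was found in 3 of 23 windows (13%) and in the ketone list in 4 of 9 (44.4%). The ETS core CCGGAA, searched on both strands as well, was found in 12.2% of all windows and in 19.3% of those of genes tested in brain. In the endothelial list it was found in 4 of 23 (17.4%), and in none of the 4 windows printed. The PPAR element, which is 2 copies of AGGTCA in 1 direction with 1 base N between them, was searched on both strands and found in 10 windows in all (0.037%) and in none of these lists. A match describes the letters only.

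The list of ketone body uptake and use did not move as 1 block. Of its 16 genes 15 were tested: 7 had a difference below 0 and 8 above 0, with a median of 0.00. At unadjusted p under 0.05, 3 were lower (20% of the list, against 2.96% of all genes) and 1 was higher (6.67% against 1.56%). The lower ones included Slc16a1 and Cpt1a, and the higher one was Slc16a6. Leaving out single libraries gave 2 to 3 lower and 0 to 4 higher members, the most without one-week KD brain 17 and the fewest without 12-month CD brain 7.

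Among the transporters, Slc16a7 (MCT2, the neuronal form) pointed the other way from Slc16a1. It stood at 119 ± 8.68 CPM (SD, n = 5) in 12-month CD and 102 ± 21.3 (n = 7) in one-week KD brains, then at 90.7 ± 20.2 (n = 8) and 104 ± 19.8 (n = 8) at 26 months. Its difference was 0.42 (SE 0.20), with an unadjusted p of 0.052 in edgeR, and 0.24 without the 4 CD brains. Slc16a6 (MCT7), a transporter known for ketone body export from the liver in zebrafish, had a difference of 0.32 (SE 0.15, 95% interval 0.02 to 0.63). Slc16a3 (MCT4, mainly a lactate exporter of astrocytes) had -0.25 (SE 0.19). Bsg, the chaperone that brings MCT1 to the membrane, had -0.08 (95% interval -0.24 to 0.08). So among these 5 genes of transport the negative difference beyond its interval belonged to Slc16a1.

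The enzymes that burn ketone bodies differed little, and their intervals were narrow. Bdh1, which oxidises beta-hydroxybutyrate, stood at 29.9 ± 1.22, 30.9 ± 1.47, 29.5 ± 1.61 and 30.1 ± 2.65 CPM in 12-month CD, one-week KD, 26-month CD and one-year KD, and its difference was -0.02 (95% interval -0.18 to 0.14). Acat1, the thiolase that yields acetyl-CoA, had 0.00 (95% interval -0.15 to 0.15). Oxct1, the rate-limiting enzyme of ketone body use, had 0.18 (95% interval -0.02 to 0.37). Aacs, which directs acetoacetate to lipid synthesis, had 0.19 (SE 0.11), and Acat2, Bdh2 and the lactate receptor Hcar1 lay between -0.06 and 0.03, the last 2 with standard errors of 0.44 and 0.40. The intervals for Bdh1 and Acat1 hold no value as large as the one measured for Slc16a1. Cpt1a, the carnitine transferase that admits fatty acids to mitochondria, had -0.27 (95% interval -0.52 to -0.01). With scores of brain regions as covariates Cpt1a had -0.07. The receptor of beta-hydroxybutyrate Hcar2 could not be tested, with 0 to 8 counts in a library.

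**Figure D3:**
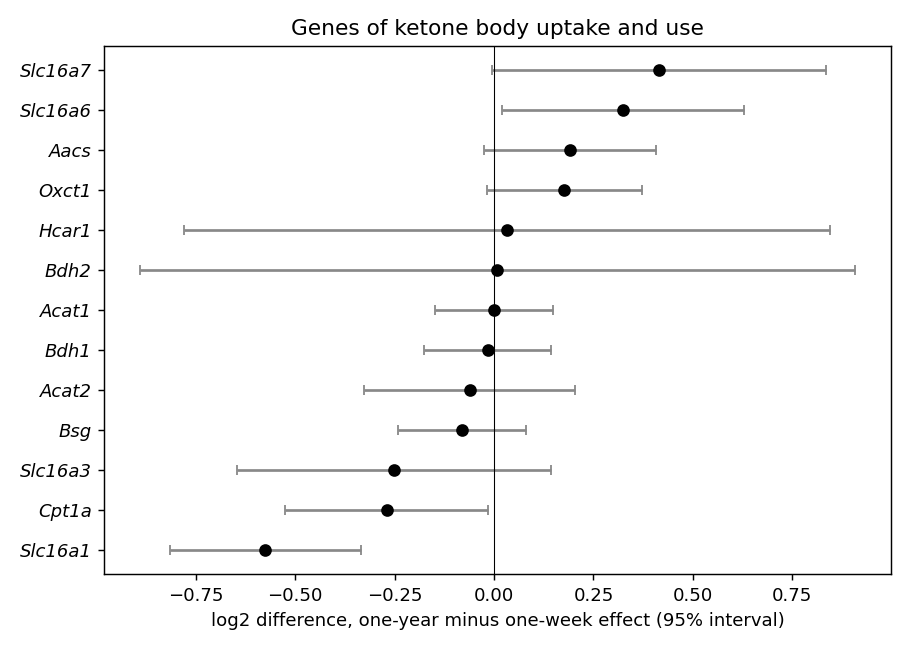
Difference of the diet effects (one year minus one week, log2) for 13 of the 15 tested genes of ketone body uptake and use, with 95% intervals from the edgeR fit. Slc16a1 at -0.58 lies clear of 0, and the enzymes Acat1 and Bdh1 lie at 0.00 and -0.02.

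Genes of brain endothelium and of the blood-brain barrier were the list with the highest share of low differences among those described for the vessel wall. Of 35 members, all tested, 31 had a difference below 0, and 15 were lower at unadjusted p under 0.05 (42.9%, against 2.96% of all genes) with 0 higher. The median difference was -0.37, against 0.00334 for all genes. It held a part from each arm: the list's median was 0.13 after one week, with 31 members above 0, and -0.23 after one year, with 30 members below 0. No member passed an adjusted p under 0.05. In bulk tissue, fewer cells of a type and less RNA per cell cannot be told apart.

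Flt1 (VEGF receptor 1, a decoy and receptor for VEGF on endothelium) stood at 62.4, 50, 69.8, 76.2 and 73.7 CPM in the 12-month CD brains and at 85.2 to 105 (median 95.1) in the one-week KD brains, with no overlap. At 26 months it ranged from 52 to 107 on CD (median 78.9) and from 59.4 to 81.8 on KD (median 65.9), with wide overlap. The difference was -0.71 (SE 0.18, adjusted p = 0.97 in edgeR). Eng (endoglin, a co-receptor for TGF-beta ligands) was 12.6 to 21.8 CPM in 12-month CD and 21.8 to 31.4 in one-week KD brains, which lay next to each other without overlap, and had a difference of -0.71 (SE 0.19). Kdr (VEGF receptor 2, the main signalling receptor) had -0.74 (SE 0.22), from 0.54 after one week and -0.20 after one year. For these receptors the one-week arm was the larger part.

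Slc2a1 (GLUT1) stood at 58.3 to 73.3 CPM in 12-month CD and 68.3 to 90.6 in one-week KD brains, which overlapped. The 26-month CD brains ranged from 67.8 to 163 (median 91) and the one-year KD brains from 65.7 to 78.3 (median 72.6). The 4 highest CD values, 163, 155, 123 and 98.1, were those of brains 3, 6, 7 and 5. Its difference was -0.78 (SE 0.21), from 0.24 after one week and -0.54 after one year, and -0.30 without these 4. Mfsd2a, the transporter of lysophospholipids that carry omega-3 fatty acids, had -0.73 (SE 0.22), from 0.17 and -0.56, and -0.47 without these 4. Vwf, the clotting factor stored in endothelium, had -1.72 (SE 0.69), but 0.30, of the other sign, without these 4. The junction genes Cldn5 and Cdh5 had -0.54 (SE 0.24) and -0.43 (SE 0.19), and -0.22 and -0.11 without them. The tight junction genes Ocln and Tjp1 and the TIE receptor Tek lay at 0.01, -0.04 and -0.04, and Tek at 0.08 without the 4. Kdr, Mfsd2a, Vwf, Cldn5, Cdh5, Ocln, Tjp1 and Tek were chosen after their values were seen.

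The endothelial result changed without the 4 CD brains of 26 months. They also had the highest scores of this list (defined below) in their group, at 0.23 to 1.40 against -1.02 to -0.32. Leaving them out was thus bound to raise the one-year effect of the list, so that fit cannot show what the result depended on. Without these 4 brains 6 of 35 members were lower at unadjusted p under 0.05, where 2.05% of all genes were. In the list 21 were below 0, and the median difference was -0.01. The one-week median stayed at 0.13 and the one-year median became 0.08. Flt1 was then at -0.39, Eng at -0.50 and Slc2a1 at -0.30. Leaving out single libraries gave 10 to 18 lower members and medians from -0.46 to -0.28, and limma with quality weights gave 7 and -0.16. The score of the list, the mean over members of the z-values of log2 CPM across the 28 brains, ran from 0.06 to 0.59 in one-week KD brains, from -0.83 to 0.19 in 12-month CD brains, from -1.02 to 1.40 in 26-month CD brains and from -0.75 to -0.05 in one-year KD brains. The spread was thus widest in the CD brains of 26 months.

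**Figure D4:**
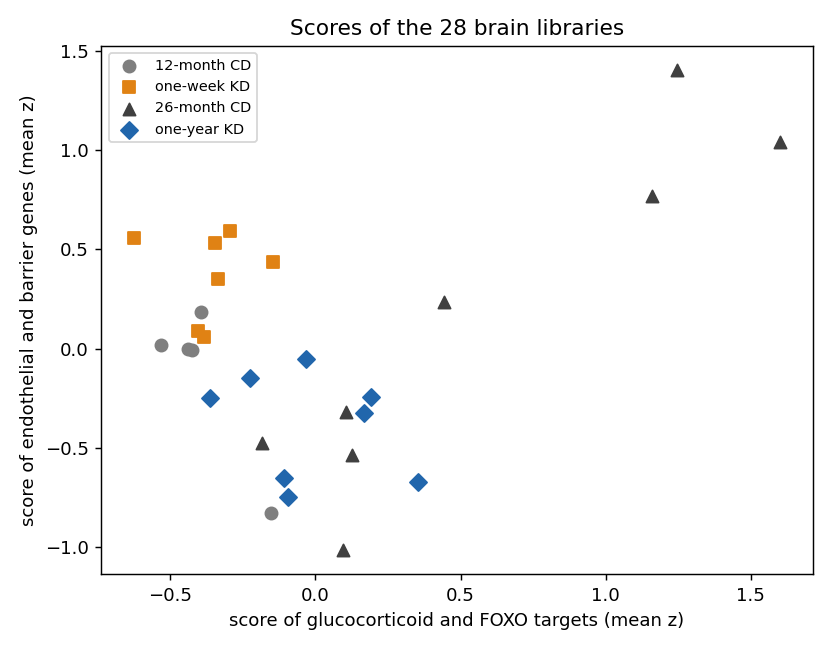
Score of glucocorticoid and FOXO targets (x axis) against the score of endothelial and barrier genes (y axis), each the mean z-value over the list, for the 28 brain libraries. In the CD brains of 26 months 4 lie at the right, at x scores of 0.44 to 1.60, with endothelial scores of 0.23 to 1.40, and the one-year KD brains lie at x scores of -0.36 to 0.35.

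Genes of VEGF, TIE and angiogenesis behaved similarly, and 8 of their tested members are also on the endothelial list. Of 48 tested, 40 had a difference below 0, 11 were lower at unadjusted p under 0.05 (22.9%) and 0 were higher, with a median of -0.21. Vegfa, the ligand itself, which astrocytes and other cells secrete, had -0.50 (SE 0.14), from 0.35 after one week and -0.15 after one year. The receptor Flt4 had -0.77 (SE 0.25), and -0.30 without the 4 CD brains. Dll4 and Notch4, a ligand and a receptor of the Notch pathway in vessels, had -0.94 (SE 0.30) and -0.82 (SE 0.22), and -0.67 and -0.39 without these brains. Notch4 stood at 7.5 to 8.99 CPM in 12-month CD and 9.34 to 11.6 in one-week KD brains, without overlap, and at 6.18 to 14.9 and 5.62 to 10.8 at 26 months, with overlap. Vegfa and Flt4 were chosen after their values were seen. There were 8 lower members, with a median of -0.07, without the 4 CD brains, where 2.05% of all genes were lower. Of the Hedgehog and Notch list, 38 tested, 6 were lower (15.8%) and 1 higher: the lower ones, Notch4, Dll4, Notch3, Jag1, Lfng and Mfng, all belong to Notch signalling, and the higher one, Rfng (0.20, SE 0.07), is a glycosyltransferase that acts on Notch receptors.

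Of the 19 tested genes of pericytes and vascular smooth muscle, 15 were below 0 and 3 were lower at unadjusted p under 0.05 (15.8%), with a median of -0.13. Rgs5, a regulator of G protein signalling that marks pericytes, measured 69.1 to 95.5 CPM in 12-month CD (median 88.4), 87.1 to 114 in one-week KD (median 97.6), 72.2 to 106 in 26-month CD (median 90.1) and 70.2 to 80.8 in one-year KD brains (median 78.8). The groups overlapped at both ages. Its difference was -0.54 (SE 0.12, adjusted p = 0.72 in edgeR), the second smallest p among the named genes, with 0.27 and -0.27 in the arms, and -0.41 without the 4 CD brains. Abcc9, a subunit of the potassium channel of pericytes, had -0.73 (SE 0.19), and -0.38 without the 4 CD brains. Notch3, the receptor of mural cells, had -0.49 (SE 0.18). The list's median was 0.05, with 3 members lower, without the 4 CD brains, where 2.05% of all genes were lower.

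Other leading genes with a lower diet effect after the year were Cxcl12, Zfp366, Acer2 and Csrp2. Cxcl12, a chemokine of endothelium and other stromal cells, stood at 38.3 to 62.7 CPM in 12-month CD and 64.9 to 84.8 in one-week KD brains, without overlap, and at 45.8 to 68.2 and 42 to 61.3 at 26 months. Its difference was -0.60 (SE 0.15), from 0.50 and -0.10, and -0.59 without the 4 CD brains. The transcriptional regulator Zfp366 had -0.75 (SE 0.19), with no overlap at 12 months (5.76 to 8.27 against 9.07 to 12 CPM), and -0.49 without these brains. Acer2, an alkaline ceramidase, had -1.90 (SE 0.45): it measured 7.13 to 9.33 CPM in 12-month CD and 11.7 to 18.5 in one-week KD brains, and up to 57.3 in 26-month CD brains. Its difference was -0.78 without the 4 CD brains. Csrp2, a LIM domain protein of smooth muscle, had -0.91 (SE 0.24), from 0.32 and -0.59, and -0.82 without these brains. None of these passed an adjusted p under 0.05.

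Leading genes with a higher diet effect after the year belong to varied functions. Ddx10, a helicase of ribosome assembly, measured 17.6 to 21.5 CPM in 12-month CD, 16.7 to 19.5 in one-week KD, 15.2 to 18.8 in 26-month CD and 17.2 to 18.7 in one-year KD brains, and its difference was 0.30 (SE 0.08). Utp14a, a component of the small subunit processome, had 0.34 (SE 0.11). Mfsd8, a lysosomal membrane protein, had 0.62 (SE 0.19), most of it from -0.46 in the week of KD. Entr1, which acts in endosomal sorting, was the 1 gene here whose one-year KD brains (36.7 to 42.7 CPM) all stood above the CD brains of their age (30.9 to 36.4), with a difference of 0.23 (SE 0.06). Ift172 of intraflagellar transport, the ubiquitin ligase Mib2, the synaptic Rims4 and Parp6, Tspan31, Kbtbd8 and Nwd2 had differences between 0.21 and 0.83, with Rims4 at 0.30 and at 0.20 without the 4 CD brains. Xlr3b had 2.29 (SE 0.72), but it has near-identical copies on the X chromosome, so reads may be split among them, and its counts are uncertain. All 12 had an adjusted p of 0.9999 in edgeR.

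Genes of fatty acid oxidation and targets of PPAR receptors, which fasting and fat feeding are known to raise in other tissues, had a median difference of -0.11. Of 34 tested, 23 were below 0, 9 were lower at unadjusted p under 0.05 (26.5%) and 0 were higher. Angptl4, an inhibitor of lipoprotein lipase, stood at 0.915, 1.02, 1.66, 1.3 and 1.5 CPM in 12-month CD, at 1.45 to 3.18 (median 2.27) in one-week KD, at 0.903 to 3.08 (median 1.99) in 26-month CD and at 0.881 to 2.23 (median 1.17) in one-year KD brains. Its difference was -1.26 (SE 0.38), from 0.83 and -0.43, and the groups overlapped at both ages. It was -0.74 without the 4 CD brains. Pdk4, the kinase that holds back pyruvate oxidation, had -0.50 (SE 0.18), and -0.28 without these brains. Acadl, an acyl-CoA dehydrogenase, had -0.26 (SE 0.10), from 0.22 and -0.04. Acadl was chosen after its values were seen. Without the 4 CD brains 1 member was lower at unadjusted p under 0.05 and the median was -0.12, and 6 to 10 were lower when single libraries were left out.

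Glucocorticoid and FOXO targets, which stress hormones and fasting raise, had a median difference of -0.27 that came from the year alone, with 0.01 after one week and -0.29 after one year. Of 30 tested, 24 were below 0, 7 were lower (23.3%) and 1 higher (3.33%) at unadjusted p under 0.05, and Angptl4, Pdk4 and Plin4 are also on the fatty acid list. Plin4, a lipid droplet coat protein, measured 16.7 to 23.1 CPM in 12-month CD and 13.9 to 29.9 in one-week KD brains. In 26-month CD brains it ranged from 16.3 to 101 with a median of 29.6, where brains 3, 6 and 7 had 91, 101 and 96.5, and in one-year KD brains from 15.5 to 27.6. Its difference was -1.30 (SE 0.47), and -0.19 without the 4 CD brains. Fkbp5 and Sgk1, classical targets of the glucocorticoid receptor that were chosen after their values were seen, had -0.55 (SE 0.36) and -0.72 (SE 0.39), and 0.03 and 0.15 without the 4 CD brains. Without the 4 CD brains, which were taken out by this very list, 0 members were lower and the median was -0.03. Leaving out CD brain 3 alone gave 4 lower members.

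Of 30 genes of glucose uptake and glycolysis 2 were lower at unadjusted p under 0.05 (6.67%), Slc2a1 and Txnip, and the median was 0.00. Txnip, which restrains glucose uptake, stood at 12 to 16.5 CPM in 12-month CD and 16.5 to 19 in one-week KD brains, and at 12.8 to 37.3 and 10.8 to 17.5 at 26 months, with a difference of -0.93 (SE 0.30), and -0.36 without the 4 CD brains. Of 30 genes of cholesterol and fatty acid synthesis 2 were higher (6.67%) and 20 were above 0, with a median of 0.10. Mvd, an enzyme of the mevalonate pathway, was among the higher ones, with 0.37 (SE 0.16), and 0.23 without these brains.

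Immediate early genes, which neuronal activity switches on within minutes, had the opposite direction. Of 32 tested, 24 were above 0, with a median of 0.48 that came from -0.34 after one week and 0.14 after one year. At unadjusted p under 0.05, 6 were higher (18.8%, against 1.56% of all genes) and 3 lower (9.38%). Fos stood at 8.59 to 26.6 CPM (median 14.4) in 12-month CD, 6.35 to 14.5 (median 8.77) in one-week KD, 12.3 to 25.7 (median 16.3) in 26-month CD and 13.3 to 34.6 (median 19) in one-year KD brains. The groups overlapped at both ages, and its difference was 0.91 (SE 0.37). Arc, a synaptic protein made after activity, had 1.29 (SE 0.55), Npas4 0.87 (SE 0.42) and Nr4a2 0.92 (SE 0.44), and Btg2 had 0.51 (SE 0.20). The 3 lower members, Maff (-1.20, SE 0.42), Apold1 (-1.15, SE 0.47) and Klf4 (-0.57, SE 0.24), are also induced in endothelium. Without the 4 CD brains Maff had -0.74 and Apold1 -0.36. Arc, Npas4, Nr4a2, Apold1 and Klf4 were chosen after their values were seen. Leaving out single libraries gave 1 to 10 higher members, the lowest without 12-month CD brain 13 and the highest without one-year KD brain 14, and the median ran from 0.33 to 0.54 in these fits. With the 4 CD brains left out 3 were higher and the median was 0.43.

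**Figure D5:**
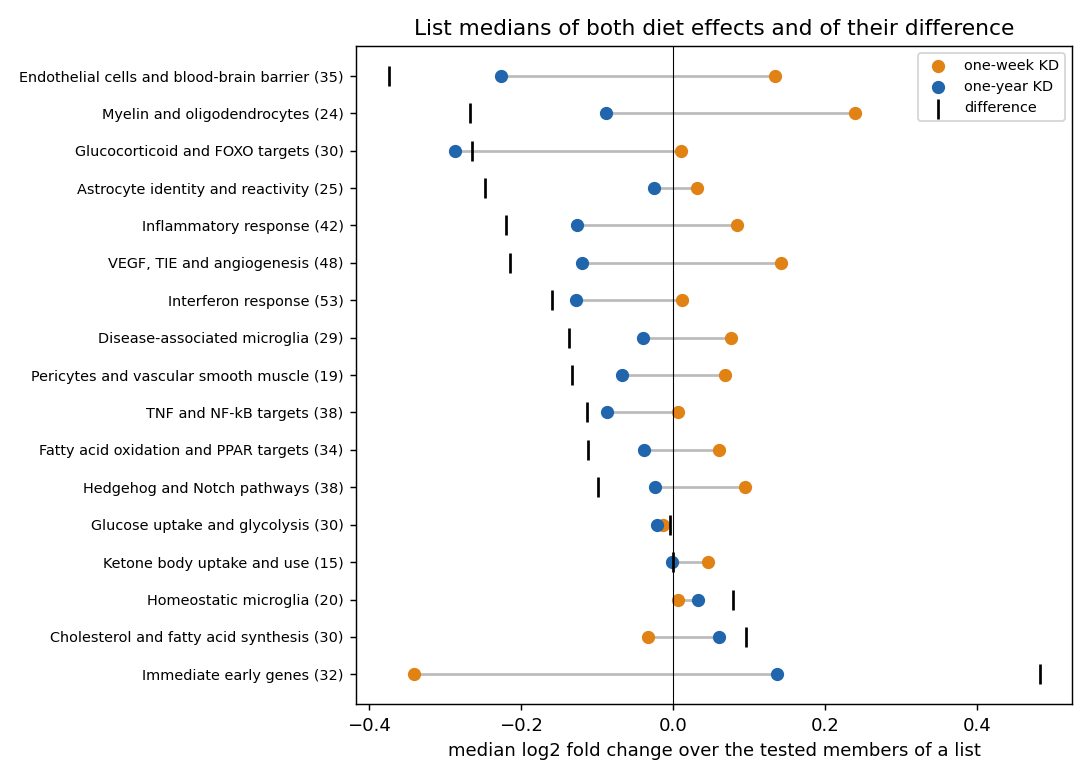
Median log2 fold change over the tested members (number in brackets) of 17 lists after one week of KD (orange) and one year (blue), and the median of the difference (black tick), which is not the difference of the 2 medians. Immediate early genes lie at -0.34, 0.14 and 0.48, and endothelial and barrier genes at 0.13, -0.23 and -0.37; the lists of hindbrain and blood cells are left out for their scale.

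Of 42 tested genes of the inflammatory response 34 were below 0, as were 49.3% of all genes, and 3 were lower at unadjusted p under 0.05 (7.14%), with 0 higher. Their median of -0.22, against 0.00334 for all genes, came from 0.08 after one week, when 0 were lower and 1 higher, and -0.13 after one year, when 8 were lower and 0 higher. Il4ra, a receptor chain for interleukins 4 and 13, had -0.60 (SE 0.20), Ncf1, a subunit of the phagocyte oxidase, had -0.47 (SE 0.20), and Lcn2, an iron-binding acute phase protein, had -3.42 (SE 1.36). Lcn2 stood at 0 to 0.549 CPM in 12-month CD, 0.0898 to 3.51 in one-week KD, 0.451 to 12.4 in 26-month CD and 0.304 to 4.89 in one-year KD brains. Without CD brain 1 of 26 months 8 members were lower, and without the 4 CD brains 0 were, with a median of -0.06, Il4ra at -0.34 and Lcn2 at -0.64. The cytokines Il1b, Il6, Tnf and Ccl2 were not tested, since the brains held 0 to 10 counts of Il1b, 0 to 7 of Il6 and Tnf and 0 to 6 of Ccl2. A change in them was not detectable at this depth.

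TNF and NF-kB targets had 2 of 38 lower (5.26%) and a median of -0.11: Csf1, the growth factor of microglia, had -0.29 (SE 0.12) and the adhesion receptor Icam1 -0.90 (SE 0.37), and -0.15 and -0.26 without the 4 CD brains. Plau had 0.60 (SE 0.30). Genes of the interferon response had 2 of 53 lower (3.77%) and a median of -0.16, with Trim25 at -0.43 (SE 0.17), or -0.25 without these brains, and the class I histocompatibility gene H2-K1 at -0.37 (SE 0.18). H2-K1 measured 9 to 14.1 and 8.79 to 13.7 CPM on CD and KD at 12 months, and 15 to 26.5 and 11.7 to 17.5 at 26 months. Bst2 had -0.89 (SE 0.44).

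Of 20 homeostatic microglial genes 0 were past an unadjusted p of 0.05 (0%) and 15 were above 0, with a median of 0.08. Trem2, the lipid receptor of microglia, had 0.56 (95% interval -0.01 to 1.13), Fcrls 0.51 (SE 0.28) and Gas6 -0.19 (SE 0.11). Of 29 genes of disease-associated microglia 2 were lower (6.9%), with a median of -0.14: Csf1 and Cd52, a surface peptide of leukocytes (-0.63, SE 0.29). Spp1 had -1.03 (SE 0.55), and -1.17 to 0.05 over the alternative fits. Of 25 genes of astrocyte identity and reactivity 1 was lower (4%), Lcn2, with a median of -0.25. Gfap, the filament of reactive astrocytes, stood at 96.9 to 199 CPM in 12-month CD, 83.2 to 269 in one-week KD, 158 to 307 in 26-month CD and 173 to 317 in one-year KD brains. Its difference was -0.44 (95% interval -1.01 to 0.13), and -0.64 to 0.01 over the alternative fits. The cytokine receptor Osmr had -0.46 (SE 0.26), and 0.09 without the 4 CD brains. Hnrnpa1, an RNA-binding protein, had 0.05 (95% interval -0.09 to 0.20), and -0.0026 without these brains, with group means from 94.9 to 99.5 CPM.

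Myelin genes had a difference below 0 in 23 of 24 members, and 4 were lower at unadjusted p under 0.05 (16.7%), with a median of -0.27. Hapln2, a link protein of the nodes of Ranvier, had -0.91 (SE 0.25), or -0.56 without the 4 CD brains, the iron carrier Trf -0.62 (SE 0.24) and Anln, a septin-binding protein of myelin, -0.51 (SE 0.20). In 12-month CD brains the myelin score ran from -1.99 to 0.14, and CD brain 4 was the lowest. With scores of brain regions as covariates 1 member was lower and the median was -0.03, and 8 were lower without one-week KD brain 11.

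Hindbrain genes had the largest median difference in size of the lists described, and their levels varied widely among brains of 1 group. Of 21 tested, 20 were below 0 and 7 were lower (33.3%), with a median of -2.38. Tph2, the enzyme of serotonin synthesis in the raphe, stood at 0.366, 0.205, 1.92, 0.324 and 0.938 CPM in 12-month CD brains and at 0.539 to 10 (median 1.57) in one-week KD brains. At 26 months it ranged from 0.994 to 19.3 on CD (median 6.3) and from 0.304 to 3.66 on KD (median 1.26), so that all groups overlapped. Its difference was -4.32 (SE 1.12), and -2.26 with scores of hindbrain, choroid plexus, striatum and cerebellum as covariates. The serotonin transporter Slc6a4 had -5.03 (SE 1.36). The hindbrain score ranged from -1.05 to 0.43 in 12-month CD, from -0.91 to 1.40 in one-week KD, from -0.86 to 1.08 in 26-month CD and from -0.94 to 0.68 in one-year KD brains. With the region scores as covariates the list's median was 1.22, that is, of the other sign, and 8 members were higher. Leaving out single libraries gave 5 to 13 lower members, the most without the one-year KD brain labelled Br_26_KD_168.

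Blood cell genes had 7 of 13 tested members lower at unadjusted p under 0.05 (53.8%) and a median of -1.16. Alas2, the erythroid enzyme of haem synthesis, measured 17.2 to 20.4 and 19.2 to 23.9 CPM at 12 months and 15.1 to 36.2 and 13.8 to 19.9 at 26 months, and its difference was -0.69 (SE 0.19). The globins Hbb-bt and Hba-a1, which have near-identical copies, had -1.86 (SE 0.52) and -1.39 (SE 0.44). Without the 4 CD brains Alas2 had -0.33, Hbb-bt -0.82 and Hba-a1 -0.56, 1 of 12 members was lower and the median was -0.49. The blood score ran from -0.85 to 0.03, from -0.63 to 1.09, from -0.36 to 1.28 and from -0.999 to 0.52 in 12-month CD, one-week KD, 26-month CD and one-year KD brains. Its medians in this order were -0.34, 0.11, 0.13 and -0.24, and those of the endothelial score were -0.00236, 0.44, -0.04 and -0.29. Its part in the endothelial result was not tested.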

How the data were processed

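Whole brain RNA of 28 mice was analysed out of a table of 44 libraries. The authors trimmed reads with Trimmomatic, aligned them to GRCm38 with STAR and counted them with RSEM (versions are not given in the sources used here), and they deposited raw counts for 54446 Ensembl identifiers as whole numbers, with no normalization. Symbols came from GENCODE vM21 for 54409 identifiers. The count setting for strand is not given in the sources used here.

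The count test was the quasi-likelihood F test of edgeR 4.0.16 in R 4.3.3, after filterByExpr and TMM scaling, in 1 fit of 4 groups without covariates, which left 22079 genes. The standard error is the log2 fold change divided by the square root of F. Adjustment over these genes followed Benjamini and Hochberg, and a call has an adjusted p under 0.05. The labels name no animal, while the paper gives 8 mice per group for the brains of 26 months. The p-values measure the spread between these libraries, which may be technical in part. No 2 libraries of a group agreed within sampling noise, the lowest chi-square per degree of freedom being 3.18.

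The members and lists were chosen with earlier results of these data known. Of 32 hand-written lists, 19 are described. Genes named are the 12 with the smallest p for the difference in each direction (mean log2 CPM above 1, without predicted genes), every tested ketone gene, the 3 members with the smallest p of each other described list, called genes, and Il1b, Il6, Tnf, Ccl2, Hcar2 and Hnrnpa1. Some members that the rule names are not reported here. Counts of members use an unadjusted p under 0.05 beside the share of all genes, and no p was computed for a list.

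Alternatives were DESeq2 1.42.0, limma 3.58.1 with sample weights, scaling by RLE or by totals only, testing all genes or those with 10 or more counts in each library, a robust dispersion, region scores as covariates, a replicate block, and each library left out. After seeing the data, fits without 3 sets of libraries were added: the 4 CD brains with the highest glucocorticoid and FOXO scores, 4 brains with over 0.5% Gm10800, and 2 one-week KD brains with hindbrain scores above 0.9. The first set also had the highest scores of its group for endothelial, VEGF, pericyte, inflammatory, TNF and NF-kB, and blood genes. Leaving it out was thus bound to raise the one-year effect of those lists. In that fit 2.05% of all genes were lower and 1.3% higher at unadjusted p under 0.05. Promoter sequences are those of RefSeq for GRCm38.p6. Figures were drawn with matplotlib 3.10.9.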

Additional observations from a re-analysis of the deposited data

Results flagged for a closer look

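In groups of 5 to 8 brains, a value was set apart when its gap to the nearest other value took up more of the group's range than Dixon's limit allows. Of 292 groups of values, 18 met this, and chance alone gives about 1 in 20. In 26-month CD brain 3, one of the 4 high in glucocorticoid and FOXO targets, Dll4 (4.47 CPM, next 2.12) and Maff (6.66, next 3.67) were the highest of their group. In CD brain 5 of that age Hcar1 was highest (1.12 CPM), and in CD brain 4 Bst2 was highest (3.16). One-year KD brain 14 was the lowest of its group in 3 genes of sterol and acetoacetate metabolism, with Acat2 at 18.7 CPM, Aacs at 21.2 and Mvd at 6.78. Other one-year KD brains were highest for Entr1 (brain 10, 42.7 CPM), Xlr3b (brain 11, 13.2) and Lcn2 (brain 13, 4.89). Among one-week KD brains the highest were Slc6a4 in brain 8 (7.42 CPM), Lcn2 in brain 11 (3.51) and Osmr in brain 17 (12.5). Among 12-month CD brains the highest were Hcar1 in brain 1 (1.83 CPM), and Dll4 (2.71) and Icam1 (1.92) in brain 7, and the lowest were Csf1 in brain 4 (26) and Ddx10 in brain 13 (17.6).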

How the results depend on the processing

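For the difference, 0 genes were called in either direction under every alternative but 2: without the 4 CD brains high in glucocorticoid and FOXO targets 1 gene, Slc16a1, was lower, and the fits that left out single libraries gave 0 to 1 lower, with 1 without CD brain 3 of 26 months, and 0 higher. At unadjusted p under 0.05, 345 genes were higher and 653 lower; 714 were higher with limma, 563 were higher and 1051 lower with no filter, which tests more genes, and 435 were lower without the 2 one-week KD brains of high hindbrain score. The one-week call of Slc16a1 was lost, leaving 0 genes, under total counts alone, no filter, region scores, the fit without brains over 0.5% Gm10800, the fit without the 2 brains of high hindbrain score, and an added limit of an absolute log2 fold change of 1; single libraries left out gave 0 to 1. In the 5 of these that changed the fit, its log2 fold change was 0.48 to 0.55, against 0.54. The cause was not tested. The one-year KD had 0 calls in all of them. The region scores include the hindbrain list, so its change of sign under them lies in part in their construction. Other list counts moved by over 1.5 times with single libraries: TNF and NF-kB targets had 4 lower without CD brain 4 of 26 months, the interferon response 1 to 5 and astrocytes 1 to 3 (the most without 12-month CD brain 1), disease-associated microglia 1 to 4 (the most without 26-month CD brain 3) and cholesterol synthesis 1 to 4 higher (the most without one-year KD brain 14).

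Replicate numbers do not pair the mice: over 10 pairs of equal number the correlation of deviations ran from -0.389 to 0.515, and 4 were above 0.1. With the replicate number as a block, the one-week call was lost (0 genes, Slc16a1 at 0.36), 8 of 35 endothelial genes and 0 of 34 fatty acid genes were lower at unadjusted p under 0.05, and the median of the immediate early genes was -0.02.

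Counts near 0 limit Il1b, Il6, Tnf, Ccl2, Hcar2 and most hindbrain genes, of which 1 of 21 had at least 10 counts in every library.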
